A study of Mus musculus with 4 samples.

Results

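The 43 genes described here encode collagens and other proteins of the extracellular matrix, the fibrous and gel-like material that surrounds cells, and all of them were found by symbol among the 53715 genes of the count table. They were chosen by name and family after the fold changes of this same comparison of Rif1_KO with WT had been seen. Differences between the genotype labels are therefore given for these genes as a description, with no test of their own. RNA came from E12.5 embryos of C57BL/6 mice, from cells labelled as primordial germ cells (which give rise to eggs or sperm) and enriched by magnetic sorting (MACS). Each of the 4 libraries held 1000 cells and was made by a modified Smart-seq2 protocol, which copies whole transcripts from few cells, with Tn5 transposase. The label WT (wild type) was carried by 2 libraries and the label Rif1_KO (Rif1 knockout) by the other 2. How the Rif1 allele was deleted, and whether libraries with the same label came from separate embryos, are points that the sources used here do not give. Any p-value thus reflects library-to-library spread alone, and that spread may be technical. WT and Rif1_KO stand for these labels throughout. Values of a pair are given as replicate 1, then replicate 2, and levels are given as CPM, that is, counts scaled to 1000000 per library after TMM correction of its total.

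The libraries went against their labels in part. Totals ran from 11724630 to 14421298 counts. Rif1, a chromatin protein of replication timing and break repair, had 43.7 and 4.73 CPM in libraries labelled WT versus 86.2 and 63.9 CPM in those labelled Rif1_KO, so its transcript was higher in the libraries labelled as knockout. One count per gene cannot tell a deleted allele's remaining exons from an intact transcript. Summed markers of germ cells reached 733 CPM in WT replicate 2 and only 39.2 to 65.4 CPM in the other 3 libraries. The haemoglobin share was 11.8 and 8.92% for WT but 1.08 and 0.555% for Rif1_KO. The 43 matrix genes took 0.137 and 0.126% of counts under WT and 0.247 and 0.323% under Rif1_KO. In such bulk libraries, more cells of a type and more RNA per cell cannot be told apart.

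Fibrillar collagens assemble from 3 chains into cross-banded fibres and are made mainly by fibroblasts and other mesenchymal cells. Basement membranes are thin sheets of type IV collagen, laminin, nidogen and perlecan that underlie epithelia and surround vessels and gonadal cords. Small leucine-rich proteoglycans bind and space collagen fibrils, and elastic fibres consist of an elastin core on a scaffold of fibrillin microfibrils. Germ cells are not a known main source of fibrillar collagen, which in the embryonic gonad is a product of interstitial cells. The genes were set in 6 classes by structure: 8 fibrillar collagens, 7 other collagens, 10 basement membrane genes, 6 proteoglycans, 8 elastic fibre and microfibril genes and 4 adhesive or matricellular genes.

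Fibrillar collagens and proteoglycans had higher summed levels in both libraries labelled Rif1_KO, while the sums of basement membrane, elastic fibre and adhesive genes overlapped between the labels. Fibrillar collagens summed to 305 ± 25.9 CPM under WT and 865 ± 148 CPM under Rif1_KO (SD, n = 2 each), a ratio of 2.84. Proteoglycans summed to 102 ± 2.47 CPM under WT and 286 ± 53.6 CPM under Rif1_KO (SD, n = 2 each), a ratio of 2.8. Both differences lay mostly in a few genes. Col1a1, Col1a2 and Col3a1 had means of 66.5, 64.6 and 64.3 CPM under WT and 343, 232 and 181 CPM under Rif1_KO. Dcn and Lum had means of 46.4 and 0.184 CPM under WT and 208 and 33.5 CPM under Rif1_KO. Fitted log2 fold changes were below 0 for 3 of the 8 fibrillar genes and 1 of the 5 tested proteoglycans. The sum of the other collagens went the opposite way, with 179 ± 35.7 CPM under WT and 129 ± 8.17 CPM under Rif1_KO (SD, n = 2 each). Both libraries labelled Rif1_KO were below both labelled WT. This lower sum lay mostly in Col12a1, with means of 108 CPM under WT and 29.4 CPM under Rif1_KO. Of the 7 genes, 5 had a fitted log2 fold change above 0, beside 46.1% of all tested genes. On the deposited totals without scaling factors the other collagens had 131.1 and 162.5 versus 148.2 and 161.4 per 1000000 counts, where the labels overlapped, while fibrillar collagens had 243.4 and 256.2 versus 1066 and 994.8 per 1000000 counts and proteoglycans 88.5 and 79.8 versus 272.9 and 424.2 per 1000000 counts. Basement membrane genes summed to 373 and 206 CPM for WT versus 297 and 367 CPM for Rif1_KO. Elastic fibre genes summed to 273 and 300.1 CPM for WT versus 195 and 364 CPM for Rif1_KO, and adhesive genes to 415 and 459 CPM for WT versus 399 and 532 CPM for Rif1_KO. In these last 3 classes the libraries of 1 label lay on both sides of a library of the other. On the deposited totals elastic fibre genes still overlapped, with 232.0 and 238.1 versus 214.7 and 476.1 per 1000000 counts, whereas basement membrane genes, with 317.3 and 163.7 versus 326.7 and 480.1 per 1000000 counts, and adhesive genes, with 353.0 and 363.8 versus 438.5 and 697.0 per 1000000 counts, were higher in both libraries labelled Rif1_KO. As a share of all counts on the 43 genes, fibrillar collagens took 17.8% and 20.3% under WT and 43.2% and 30.8% under Rif1_KO.

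**Figure D1:**
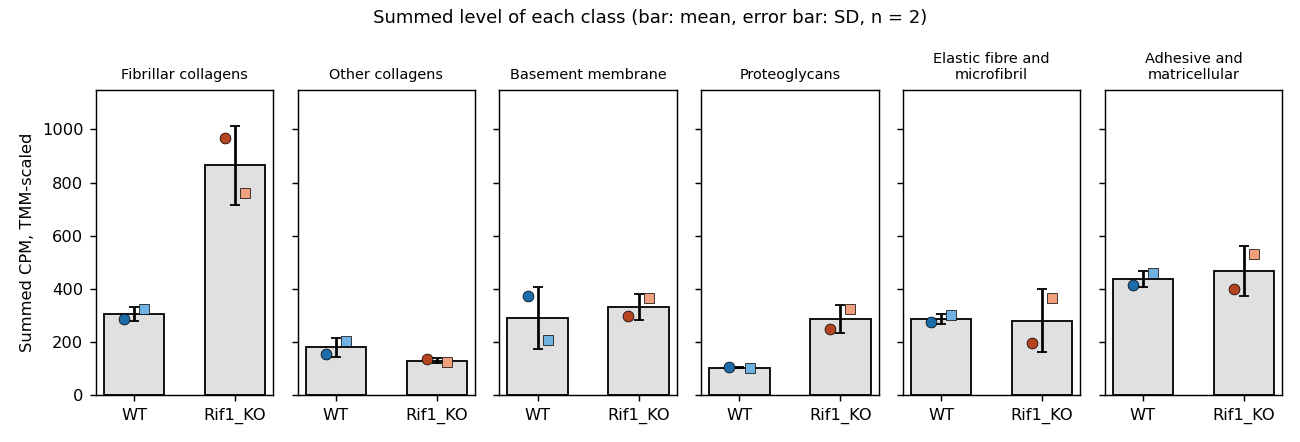
Summed level of each class of matrix genes in CPM (TMM-scaled), by genotype label; bars are means, error bars SD (n = 2 each) and points the libraries (circles replicate 1, squares replicate 2). Fibrillar collagens lie at 286 and 323 CPM under WT and at 970 and 760 CPM under Rif1_KO, while the points of basement membrane, elastic fibre and adhesive genes overlap.

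Of the 43 genes, 42 had enough counts to be tested in the fit over all 15466 genes; Ogn did not. The edgeR quasi-likelihood test called 0 of the 42 at an adjusted p under 0.05, beside 0.0129% of all tested genes, and at an unadjusted p under 0.05 it gave 6 genes that were higher (Col1a1, Col1a2, Col3a1, Dcn, Lum and Lox) and 1 that was lower (Col12a1), where the shares of all genes were 5.35% and 3.05%. DESeq2 called 1 of them higher, Lum, beside 2.13% of all genes, and 0 lower, beside 1.23%. Lum and Lox, each with 4 and 0 counts under WT, passed the filter only through their counts under Rif1_KO. Both libraries labelled Rif1_KO lay above both labelled WT for 16 genes and below them for 3, where the shares of all tested genes were 21.0% and 18.4%. The fitted log2 fold change of Rif1_KO against WT was above 0 for 27 of the 42, beside 46.1% of all genes, and their median was 0.43 beside -0.11 for all genes. Nothing is read from these counts, because the list was drawn up with this comparison known. With 1 library left out, 1 label holds a single library, so the labels separate more easily. Matrix genes with no overlap and Rif1_KO higher then numbered 28 without WT replicate 1 and 27 without Rif1_KO replicate 1, in place of 16. The share of all tested genes rose to 38.2% and 35.1%. When CPM was taken on the deposited totals with no scaling factors, genes with both libraries labelled Rif1_KO above numbered 24, beside 34.5% of all genes. The number with both below was 1 in place of 3.

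**Figure D2:**
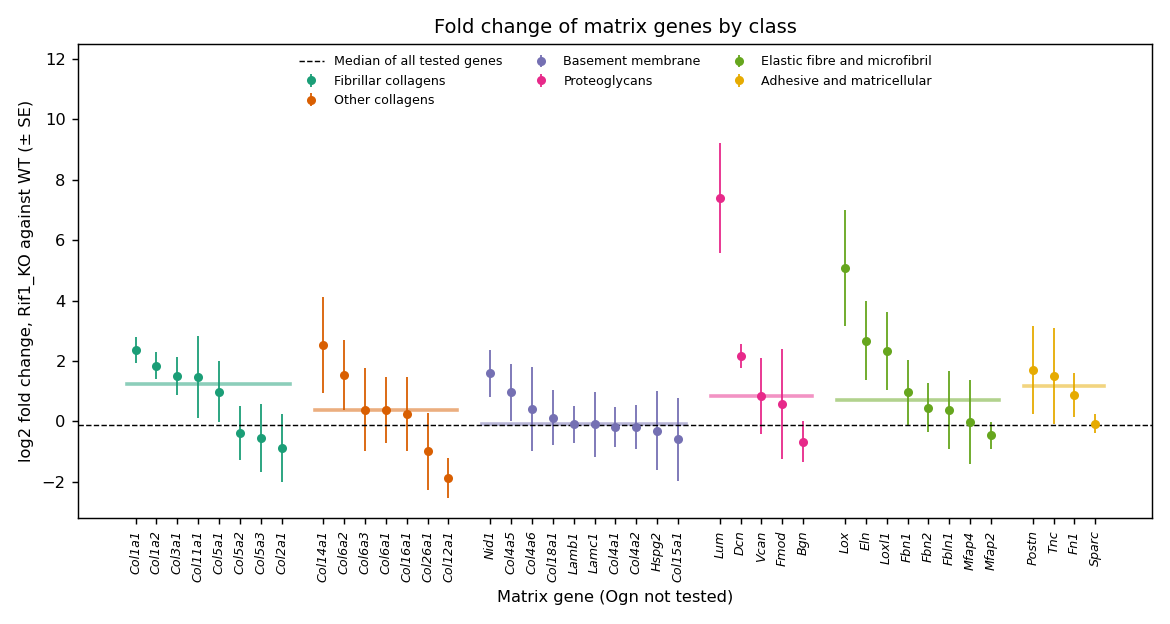
Fitted log2 fold change of Rif1_KO against WT (points) with its SE (bars) for the 42 tested matrix genes, by class; horizontal bars are class medians and the dashed line is the median of all tested genes. The medians are 1.22 for fibrillar collagens and -0.11 for basement membrane genes, the latter close to the -0.11 of all genes.

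Type I collagen is the main fibre of skin, bone and loose connective tissue and is built from the chains of Col1a1 and Col1a2. Col1a1 (ENSMUSG00000001506.10, chromosome 11, 94936224 to 94953042, mm10) had 46.1 and 87 CPM in libraries labelled WT versus 385 and 301 CPM in those labelled Rif1_KO, from 500 and 809 counts versus 5105 and 5691 counts. Col1a2 (ENSMUSG00000029661.16, chromosome 6, 4504814 to 4541544) had 82.2 and 47.1 CPM in libraries labelled WT versus 275 and 188 CPM in those labelled Rif1_KO. Both chains were therefore higher in both libraries labelled Rif1_KO, 5.16-fold and 3.59-fold by the ratio of means, with log2 fold changes of 2.37 (SE 0.43) and 1.84 (SE 0.45). Leaving out 1 library at a time kept the value within 2.03 to 2.9 for Col1a1 and 1.5 to 2.35 for Col1a2. Col3a1, the chain of type III collagen that joins type I in elastic tissues (ENSMUSG00000026043.18, chromosome 1, 45311538 to 45349706), had 100.4 and 28.2 CPM in libraries labelled WT versus 162 and 201 CPM in those labelled Rif1_KO. Its libraries labelled WT differed 3.57-fold from each other, and its log2 fold change of 1.49 (SE 0.63) ranged over 0.86 to 2.73 with 1 library left out.

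The promoter windows of Col1a2 and Col3a1 are shown because these genes were higher together with Col1a1, for which no window is shown. They are the RefSeq windows of build GRCm38.p6 (the assembly of mm10), 250 bases before to 50 after the annotated start, and base 1 is that start. For Col1a2 it lies inside the longer gene model of the table. Capitals mark matches on either strand to the TATA box TATAAA, to the CCAAT box, to the GC box GGGCGG, to the AP-1 motif TGANTCA or to the E-box CACGTG.
Col1a2 (chr6:4505368-4505667, plus strand): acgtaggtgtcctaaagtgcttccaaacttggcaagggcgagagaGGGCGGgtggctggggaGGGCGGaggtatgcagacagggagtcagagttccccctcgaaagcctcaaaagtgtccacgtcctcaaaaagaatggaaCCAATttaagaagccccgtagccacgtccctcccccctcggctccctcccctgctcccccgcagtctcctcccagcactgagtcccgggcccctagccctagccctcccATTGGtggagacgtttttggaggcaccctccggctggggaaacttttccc
Col3a1 (chr1:45311288-45311587, plus strand): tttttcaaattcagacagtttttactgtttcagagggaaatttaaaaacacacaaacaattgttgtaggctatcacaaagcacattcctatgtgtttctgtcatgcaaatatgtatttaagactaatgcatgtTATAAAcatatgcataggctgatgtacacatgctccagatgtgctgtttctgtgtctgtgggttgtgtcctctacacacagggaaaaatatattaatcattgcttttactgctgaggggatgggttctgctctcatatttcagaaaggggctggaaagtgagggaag
Counted from the start, Col1a2 has GGGCGG at -205 and -188 and CCAAT at -109, with the reverse form ATTGG beginning at base 1. Col3a1 has 1 match, TATAAA at -117. The 2 windows thus have no searched motif in common.

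The minor fibrillar chains were less uniform. Type V collagen, which controls the width of type I fibrils, is built from Col5a1, Col5a2 and in some tissues Col5a3. Col5a1 had 26.1 and 7.2 CPM versus 36.8 and 28.9 CPM (WT, then Rif1_KO, here and below), with a ratio of means of 1.98, and only WT replicate 2 lay far from the other libraries. Col5a2 had 26.2 and 144 CPM versus 98.8 and 32 CPM, so it was highest in WT replicate 2, and the labels overlapped. Col5a3 was low throughout, at 2.21 and 2.69 CPM versus 2.56 and 0.794 CPM. Col11a1, a chain of type XI collagen of cartilage and other tissues, had 1.11 and 4.3 CPM versus 7.53 and 7.31 CPM, and both libraries labelled Rif1_KO lay above. The cartilage collagen Col2a1 had 2.12 and 2.47 CPM versus 2.03 and 0.477 CPM, from 9 to 27 counts a library, with both libraries labelled Rif1_KO below; on the deposited totals it had 1.8 and 1.96 versus 2.24 and 0.624 per 1000000 counts and overlapped. The median log2 fold change of the 8 fibrillar chains was 1.22, and 5 of the 8 had both libraries labelled Rif1_KO above both labelled WT, beside 21.0% of all tested genes.

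**Figure D3:**
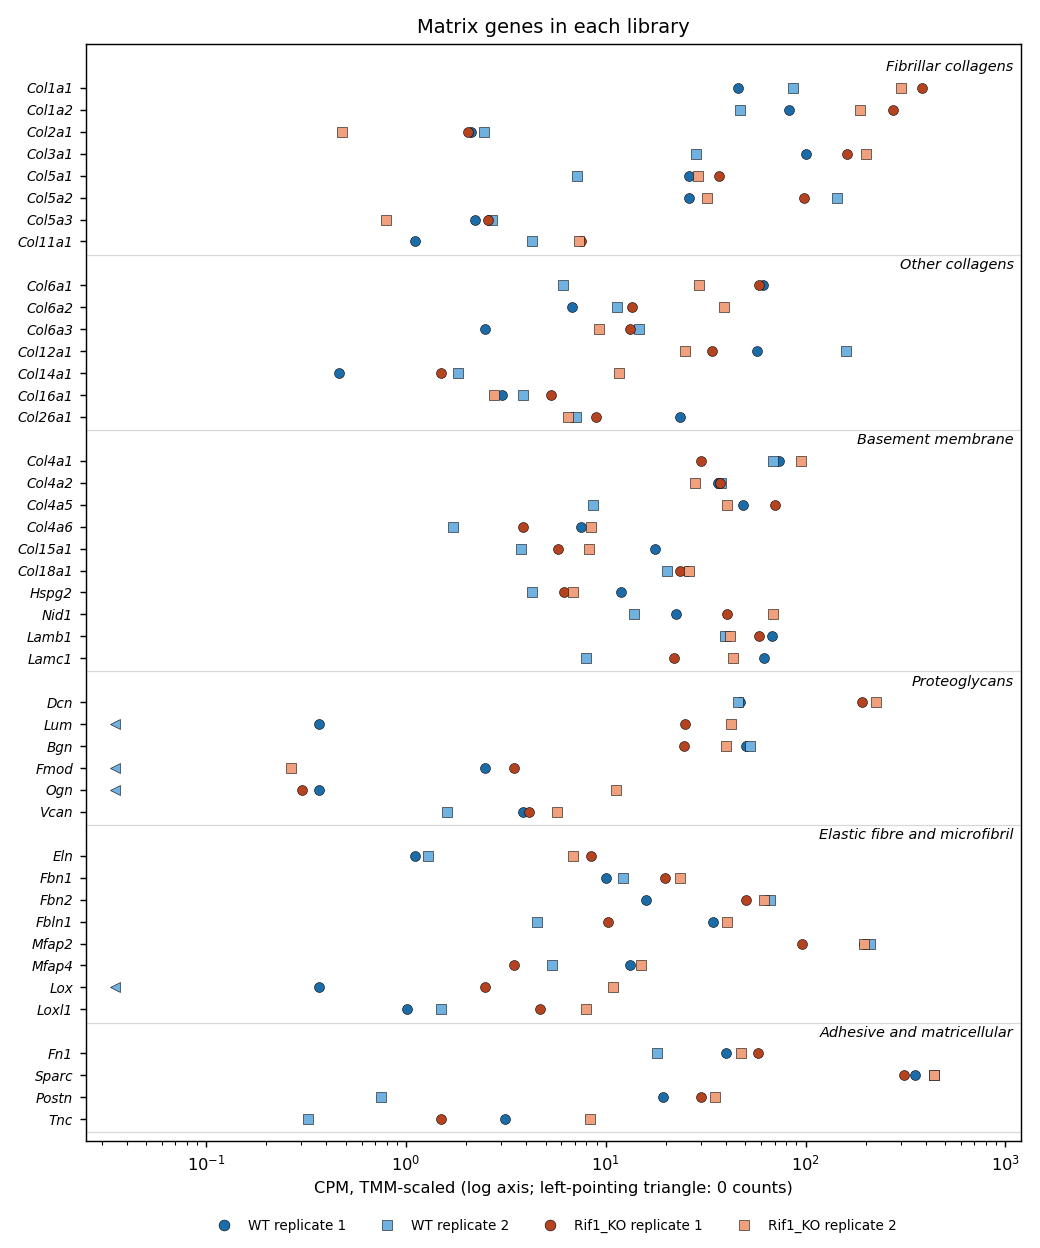
CPM (TMM-scaled, log axis) of the 43 matrix genes in each library; circles are replicate 1 and squares replicate 2, blue for WT and orange for Rif1_KO, and triangles at the left edge mark 0 counts. Col1a1, Col1a2 and Dcn separate the labels, with close replicates for Dcn, while Col5a2, Col6a1, Lamc1 and Fbln1 spread as widely within a label as between labels.

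Among the other collagens the 3 chains of type VI, a collagen of beaded filaments near cell surfaces, did not move as a unit. Col6a1 had 60.9 and 6.13 CPM versus 58.2 and 29.1 CPM, Col6a2 had 6.82 and 11.4 CPM versus 13.6 and 39.1 CPM and Col6a3 had 2.49 and 14.7 CPM versus 13.2 and 9.27 CPM. Only Col6a2 had both libraries labelled Rif1_KO above both labelled WT among these 3. Col12a1, a fibril-associated collagen that links fibrils to their surroundings (ENSMUSG00000032332.17, chromosome 9, 79598991 to 79718831), had both libraries labelled Rif1_KO below both labelled WT. It had 56.9 and 159.7 CPM in libraries labelled WT versus 34.1 and 24.8 CPM in those labelled Rif1_KO, a 3.68-fold lower mean and a log2 fold change of -1.88 (SE 0.66), staying within -2.39 to -0.94 with 1 library left out. Col14a1, of the same fibril-associated family, had 0.461 and 1.83 CPM versus 1.51 and 11.7 CPM, so its higher mean under Rif1_KO rested on replicate 2. Col16a1 had 3.04 and 3.87 CPM versus 5.35 and 2.75 CPM, and Col26a1, known from testis and ovary, 23.6 and 7.09 CPM versus 8.89 and 6.46 CPM; both overlapped between the labels. The class median was 0.38, of opposite sign to the change of the class sum, and it was -0.15 without Rif1_KO replicate 1.

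With TMM scaling, basement membrane genes showed no common difference between the labels. Their median log2 fold change was -0.11, beside -0.11 for all tested genes, and 9 of the 10 overlapped between the labels, beside 60.6% of all tested genes. The median was above 0 in 6 of 12 alternatives and reached 0.8 without WT replicate 1. Col4a1 and Col4a2, the 2 chains of the type IV collagen found in nearly all basement membranes, are described first. Col4a1 had 73.6 and 68.5 CPM versus 29.8 and 95.1 CPM. Col4a2 had 36.4 and 37.8 CPM versus 37.1 and 28.1 CPM and was nearly level over the libraries, while Col4a1 differed 3.19-fold between the libraries labelled Rif1_KO. Col4a5 and Col4a6, X-linked chains of specialised basement membranes, were each lowest in WT replicate 2. For Col4a5 the levels were 48.4 and 8.6 CPM versus 70.2 and 40.4 CPM, and for Col4a6 7.55 and 1.72 CPM versus 3.84 and 8.42 CPM. With TMM scaling the exception to the overlap was Nid1 (ENSMUSG00000005397.8, chromosome 13, 13437551 to 13512269), which encodes nidogen, a link between laminin and type IV collagen. It had 22.4 and 13.9 CPM in libraries labelled WT versus 40.4 and 68.6 CPM in those labelled Rif1_KO, a 3.01-fold higher mean and a log2 fold change of 1.59 (SE 0.77), within 1.2 to 2.02 with 1 library left out.

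Lamb1 and Lamc1 encode chains of laminin, the main adhesive protein of basement membranes. Lamb1 had 68.1 and 39.6 CPM versus 58.3 and 41.9 CPM and overlapped between the labels. Lamc1 had 62 and 7.95 CPM versus 21.9 and 43.1 CPM. Lamc1 was lowest in WT replicate 2 and highest in WT replicate 1, so both libraries labelled Rif1_KO lay between these. Hspg2, for the heparan sulphate proteoglycan perlecan, had 11.9 and 4.3 CPM versus 6.18 and 6.83 CPM. Col15a1 and Col18a1 encode collagens of the basement membrane zone, and Col18a1 carries endostatin. Col15a1 had 17.6 and 3.76 CPM versus 5.8 and 8.26 CPM. Col18a1 had 25.4 and 20.2 CPM versus 23.6 and 26 CPM and kept close to 1 level in all libraries, with a log2 fold change of 0.12 (SE 0.90).

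Col4a1 and Col4a2 lie head to head on chromosome 8 and are transcribed away from each other, and their gene models in the table share 22 exonic bases, so few reads can be counted for both. Their windows are printed because the 2 genes share this start region and yet differed in how they varied over the libraries.
Col4a1 (chr8:11312777-11313076, minus strand): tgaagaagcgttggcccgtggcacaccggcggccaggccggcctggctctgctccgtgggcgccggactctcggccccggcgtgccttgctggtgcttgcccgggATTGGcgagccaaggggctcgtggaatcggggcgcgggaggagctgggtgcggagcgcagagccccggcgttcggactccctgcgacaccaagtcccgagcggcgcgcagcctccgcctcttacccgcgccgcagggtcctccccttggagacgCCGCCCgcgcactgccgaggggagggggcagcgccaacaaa
Col4a2 (chr8:11312555-11312854, plus strand): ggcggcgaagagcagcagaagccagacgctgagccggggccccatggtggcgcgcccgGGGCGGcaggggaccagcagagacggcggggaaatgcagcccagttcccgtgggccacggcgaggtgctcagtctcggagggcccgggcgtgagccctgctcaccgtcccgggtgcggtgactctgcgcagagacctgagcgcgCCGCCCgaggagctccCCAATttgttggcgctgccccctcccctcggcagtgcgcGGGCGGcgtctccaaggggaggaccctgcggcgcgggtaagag
The windows share 78 bases (chromosome 8, 11312777 to 11312854), each reading them on its own strand. In the Col4a1 window the reverse forms ATTGG and CCGCCC begin at -145 and at 10. In the Col4a2 window GGGCGG begins at -192 and 8, CCGCCC at -48 and CCAAT at -32. The CCGCCC at 10 in the Col4a1 window and the GGGCGG at 8 in the Col4a2 window are the same bases of the shared stretch, read on opposite strands.

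Proteoglycans held the widest range of differences. Dcn encodes decorin, a small leucine-rich proteoglycan that binds collagen fibrils (ENSMUSG00000019929.16, chromosome 10, 97479609 to 97518143). It had 46.8 and 46 CPM in libraries labelled WT versus 191 and 224 CPM in those labelled Rif1_KO, from 508 and 428 counts versus 2533 and 4235 counts. The libraries of each label lay within 1.02-fold and 1.18-fold of each other, and the labels were 4.47-fold apart, with a log2 fold change of 2.16 (SE 0.39) that kept to 2.09 to 2.35 with 1 library left out. Lum, for the related lumican (ENSMUSG00000036446.5, chromosome 10, 97565128 to 97572703), had 0.368 and 0 CPM in libraries labelled WT versus 24.9 and 42.2 CPM in those labelled Rif1_KO, from 4 and 0 counts versus 330 and 797 counts. The ratio of its pooled counts, scaled to the TMM-corrected library totals, was 177 (exact 95% interval 68.8 to 649, counting error only). Ogn, for osteoglycin of the same family, had 4 and 0 counts against 4 and 213, so its difference came from Rif1_KO replicate 2 alone.

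Bgn, for biglycan, is the closest relative of decorin in this list and went the other way. It had 50.2 and 53 CPM in libraries labelled WT versus 24.6 and 40.2 CPM in those labelled Rif1_KO, and both libraries labelled Rif1_KO lay below both labelled WT, with a log2 fold change of -0.67 (SE 0.67). On the deposited totals with no scaling this value was -0.09, and Bgn overlapped between the labels with 42.7 and 42 versus 27 and 52.6 per 1000000 counts. Fmod, for fibromodulin, had 27 and 0 counts against 46 and 5, and no order of the labels was seen. Vcan encodes versican, a large proteoglycan of loose embryonic matrix, and had 3.87 and 1.61 CPM versus 4.14 and 5.72 CPM. Its replicate 1 values under the labels were nearly equal, although both libraries labelled Rif1_KO lay above. A count of 0 in WT replicate 2, as for Lum, Ogn, Fmod and Lox, allows up to 0.256 per 1000000 of that library's deposited total (3 counts).

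Of the 8 elastic fibre genes, 4 had both libraries labelled Rif1_KO above both labelled WT (Eln, Lox, Loxl1 and Fbn1), beside 21.0% of all tested genes, and the other 4 overlapped. Eln, for elastin (ENSMUSG00000029675.12, chromosome 5, 134702593 to 134747323), had 1.11 and 1.29 CPM in libraries labelled WT versus 8.44 and 6.83 CPM in those labelled Rif1_KO, from 12 and 12 counts versus 112 and 129 counts, a 6.38-fold higher mean and a log2 fold change of 2.66 (SE 1.31). Its exons share 267 bases with the opposite-strand gene Gm30003, which had 0 and 10 counts against 67 and 0, and strand was not used in counting. Lox and Loxl1 encode lysyl oxidases, which cross-link elastin and collagen. Lox had 4 and 0 counts against 33 and 206, a ratio of pooled counts, scaled to the TMM-corrected totals, of 37.5 (exact 95% interval 14.4 to 139, counting error only). Loxl1 had 1.01 and 1.5 CPM versus 4.67 and 8.0 CPM, a 5.03-fold higher mean. Elastin and both oxidases thus had both libraries labelled Rif1_KO above both labelled WT, with no level above 10.9 CPM.

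Fbn1 and Fbn2 encode fibrillins, the main subunits of microfibrils, of which fibrillin-2 is mostly an embryonic form. Fbn1 had 10.04 and 12.1 CPM versus 19.7 and 23.6 CPM and lay higher in both libraries labelled Rif1_KO, 1.95-fold by the means; 2442 of its exonic bases are shared with Gm9913, which had 3 and 2 counts versus 11 and 3. Fbn2 had 15.8 and 66.2 CPM versus 50.6 and 61.8 CPM, with WT replicate 2 above all others. Mfap2, for a small microfibril protein (ENSMUSG00000060572.17, chromosome 4, 141010418 to 141015984), had 197 and 209 CPM versus 95.6 and 197 CPM, so 3 of the libraries were nearly level and Rif1_KO replicate 1 was lower. Mfap4 had 13.3 and 5.37 CPM versus 3.47 and 14.9 CPM and Fbln1, for fibulin-1, 34.5 and 4.51 CPM versus 10.2 and 40.4 CPM. In these 2 genes WT replicate 1 and Rif1_KO replicate 2 were both high and the other libraries low. The class median was 0.71.

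Of the adhesive and matricellular genes, Sparc had the most counts and no common difference between the labels. It encodes a collagen-binding secreted protein (ENSMUSG00000018593.13, chromosome 11, 55394500 to 55423183) and had 353 and 439 CPM in libraries labelled WT versus 309 and 442 CPM in those labelled Rif1_KO, with a log2 fold change of -0.08 (SE 0.32). Fn1, for fibronectin, had 40.1 and 18.1 CPM versus 57.9 and 47.3 CPM, and both libraries labelled Rif1_KO lay above. Its exons share 292 bases with Apol7d, with 3 and 5 counts versus 84 and 40. Postn, for periostin, had 19.3 and 0.752 CPM versus 30.1 and 35.1 CPM. Its libraries labelled WT differed 25.7-fold, so its log2 fold change of 1.7 (SE 1.47) was 0.76 without WT replicate 2 and 5.47 without WT replicate 1. Tnc, for tenascin-C, had 3.13 and 0.322 CPM versus 1.51 and 8.32 CPM and overlapped; its exons share 176 bases with the opposite-strand gene 8030451A03Rik, which had 45 and 0 counts versus 99 and 168.

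Compared with each other per kilobase of exon length, the genes formed a steep series. Mfap2 had 162 and 173 against 79 and 163 CPM per kilobase (WT, then Rif1_KO) and Sparc 93.1 and 116 against 81.7 and 117 CPM per kilobase, and these 2 were the top pair in every library. Their order was not the same in all, since Sparc was first in Rif1_KO replicate 1. The next places under the label Rif1_KO went to Col1a1, with 7.02 and 13.3 against 58.6 and 45.9 CPM per kilobase, and Dcn, with 8.02 and 7.88 against 32.7 and 38.4 CPM per kilobase. In WT replicate 1 Col1a1 was only number 11 of 43 and in WT replicate 2 number 4, against number 3 in both libraries labelled Rif1_KO. Dcn was number 7 and 8 under WT and number 4 in both under Rif1_KO. This scale depends on the length used. The table's exon length of Dcn, 5838 bases, covers all annotated exons and is 3.32 times its longest coding transcript. Per kilobase of that transcript Dcn was number 3 in both libraries labelled WT and numbers 2 and 3 under Rif1_KO.

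Chains that join in 1 collagen or laminin did not keep a fixed ratio of transcripts. The ratio of Col1a1 to Col1a2 per kilobase of exon was 1.06 and 3.5 under WT and 2.65 and 3.03 under Rif1_KO. Per kilobase of the longest coding transcript the same ratio was 0.506 and 1.67 under WT and 1.26 and 1.44 under Rif1_KO. By either length WT replicate 1 stood below the other 3 libraries, which were close to each other. For Col4a1 to Col4a2 the ratio per exon kilobase was 1.79 and 1.6 under WT and 0.712 and 3.0 under Rif1_KO, so the labels did not order it. Col4a5 exceeded Col4a6 in every library, by a ratio of 7.6 and 5.93 under WT and 21.7 and 5.69 under Rif1_KO. The ratio of Col6a1 to Col6a2 was 17 and 1.02 under WT and 8.16 and 1.41 under Rif1_KO, and that of Col5a1 to Col5a2 was 1.13 and 0.0565 under WT and 0.421 and 1.02 under Rif1_KO. For Lamb1 to Lamc1 it was 0.916 and 4.15 under WT and 2.23 and 0.811 under Rif1_KO. In the last 3 pairs the labels overlapped.

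**Figure D4:**
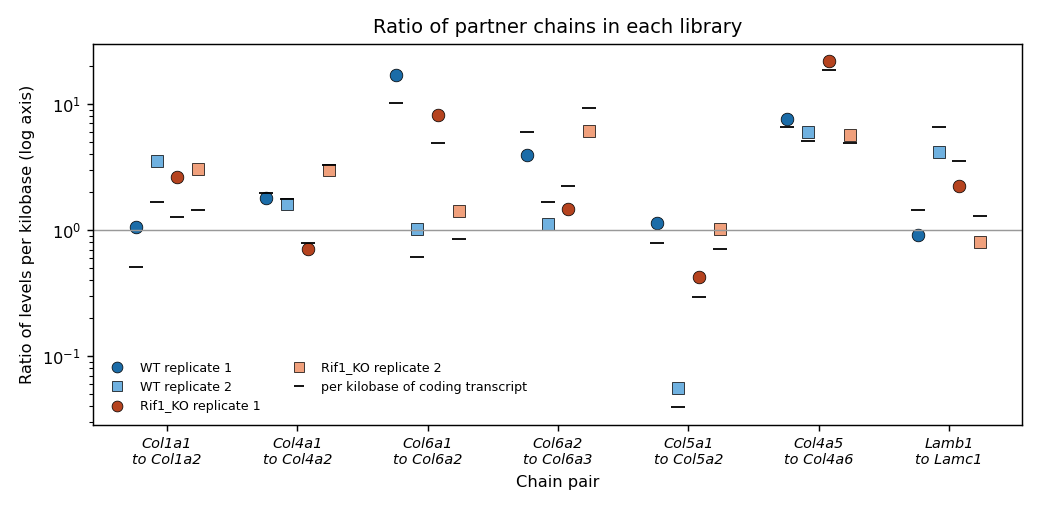
Ratio of levels per kilobase of exon (log axis) of 7 pairs of partner chains in each library, with short black dashes for the same ratio per kilobase of the longest coding transcript; the grey line marks equal levels. Per kilobase of exon, Col4a5 to Col4a6 is above 5 in all libraries, while Col6a1 to Col6a2 runs from 1.02 to 17 within the label WT.

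Differences between libraries of the same label were wide for these genes, as for all genes. Under the label WT, 14 of the 42 tested matrix genes differed more than 4-fold between replicates or were at 0 in 1 of them, which is 33.3%, beside 36.1% of all tested genes. Under Rif1_KO the count was 6, or 14.3%, beside 17.7%. Of the 43 genes, 25 (58.1%) were lower in WT replicate 2 than in WT replicate 1, beside 48.2% of all tested genes. Postn, Lamc1, Col6a1 and Fbln1 were among those lower in WT replicate 2, and Col5a2, Col12a1 and Fbn2 among those higher there.

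Neighbouring genes on a chromosome did not always share a pattern. Col3a1 and Col5a2 lie on opposite strands of chromosome 1 with 24614 bases and no other gene of the table between them. Yet Col3a1 was lowest in WT replicate 2, where Col5a2 was highest. Dcn and Lum lie on the same strand of chromosome 10, 46984 bases apart with no gene between them, and both were higher in both libraries labelled Rif1_KO. Col6a2 and Col6a1 lie 85161 bases apart on chromosome 10 with 1 gene between them, and replicate 2 was the higher one under each label for Col6a2 and the lower one for Col6a1.

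The RefSeq table held 34 promoter windows for 28 of the 43 genes. The GC box GGGCGG (reverse CCGCCC) was found in 64.7% of these 34, beside 35.7% of all 32851 windows of the same length. The other motifs were found in shares nearer to those of all windows: CCAAT in 41.2% beside 37.4%, TATAAA in 14.7% beside 13.6%, CACGTG in 5.88% beside 7.15% and the AP-1 motif TGANTCA in 2.94% beside 7.81%. No match overlapped a match of another motif in the 34 windows. Some genes have several windows, and a match describes letters only.

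Genes that modify, assemble, anchor or degrade matrix were taken from lists of general knowledge, none of them members of the 43, and the edgeR test over all genes called 0 of them. Collagen-processing genes had 27 of 30 tested, and an unadjusted p under 0.05 was given to 1 higher and 1 lower gene, while DESeq2 called 0. P4ha1, a subunit of the prolyl hydroxylase that stabilises the collagen helix, had 0.461 and 9.89 CPM versus 57.1 and 51.1 CPM and a log2 fold change of 3.39 (SE 1.41). P3h1, a prolyl 3-hydroxylase, had 123 and 33.8 CPM versus 14 and 15.6 CPM and -2.4 (SE 0.82), and P3h2 of the same family had 0.461 and 0.43 CPM versus 0.753 and 12.1 CPM. By edgeR, the adjusted p was 0.588, 0.571 and 0.619 for these 3. The list summed to 914 and 634 CPM versus 725 and 928 CPM with a median log2 fold change of 0.44, so the sums overlapped between the labels. On the deposited totals they were 776.7 and 502.7 versus 796.6 and 1215 per 1000000 counts, with both libraries labelled Rif1_KO above.

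The remaining collagens were scarce, with 18 of 23 tested, a sum of 54.4 and 50.8 CPM versus 43.3 and 45.3 CPM and a median log2 fold change of -0.24. On the deposited totals the direction of that sum turned, with 46.3 and 40.3 versus 47.6 and 59.4 per 1000000 counts. Among them Col6a4 had 1.57 and 2.15 CPM versus 0.904 and 0.212 CPM, Col11a2 10.5 and 2.36 CPM versus 1.96 and 1.06 CPM and Col22a1 15.8 and 4.41 CPM versus 1.66 and 4.18 CPM, and the edgeR adjusted p was 0.716 or more. For the remaining basement membrane genes (22 of 23 tested) the median was -0.14, and 0 passed an unadjusted p of 0.05 by edgeR or the adjusted threshold by DESeq2. Nid2, the second nidogen gene, had 21.2 and 3.22 CPM versus 46 and 45.9 CPM, and Hmcn1, for hemicentin-1, 6.73 and 11.1 CPM versus 25.2 and 32.2 CPM. Egflam, for pikachurin, had 0.461 and 0.43 CPM versus 7.01 and 0.847 CPM. Nid1 and Nid2 thus had both libraries labelled Rif1_KO above both labelled WT, with an edgeR adjusted p of 0.695 for Nid2.

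Of the remaining matrix proteins (23 of 32 tested, median 0.06), Ecm1 had 0.645 and 1.07 CPM versus 2.79 and 32.6 CPM, Thbs1, for thrombospondin-1, 1.01 and 1.5 CPM versus 27.1 and 3.97 CPM and the microfibril gene Mfap5 0.737 and 0.322 CPM versus 3.47 and 1.48 CPM. Ecm1 was called higher by DESeq2 (adjusted p = 0.0403) and not by edgeR (adjusted p = 0.583), and its mean rested on Rif1_KO replicate 2. Matrix-degrading enzymes and their inhibitors (14 of 17 tested) had a median of -0.23. In that list the gelatinase gene Mmp9 had 9.12 and 1.29 CPM versus 0.527 and 0.159 CPM, the protease inhibitor gene Timp1 18.1 and 26.4 CPM versus 45.7 and 52.4 CPM and the gelatinase gene Mmp2 59.4 and 72.8 CPM versus 20.8 and 60.1 CPM. By edgeR, the adjusted p was 0.584 for Mmp9, 0.728 for Timp1 and 0.83 for Mmp2. Matrix receptors (20 of 21 tested) had a median of -0.04. The integrin chain Itgb8 had 2.12 and 0.752 CPM versus 11.9 and 29.3 CPM and was called higher by DESeq2 (adjusted p = 0.0255) but not by edgeR (0.577). The collagen-binding integrin chain Itga2 had 0.645 and 0.967 CPM versus 4.45 and 4.71 CPM and the syndecan gene Sdc2 113 and 48.6 CPM versus 28.3 and 26.7 CPM, with edgeR adjusted p of 0.632 and 0.592.

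Markers of mesenchyme other than matrix genes had higher sums in the same libraries as the fibrillar collagens, although edgeR called 0 of them (2 were higher at an unadjusted p under 0.05) and DESeq2 0. They summed to 385 and 374 CPM for WT versus 751 and 532 CPM for Rif1_KO. Of the 21 markers 15 were tested, and 12 of these had a fitted log2 fold change above 0, beside 46.1% of all tested genes. Their median was 0.85. Nr2f2, a nuclear receptor of interstitial cells, had 215 and 162 CPM versus 476 and 268 CPM, and Maf, a transcription factor of the same cells, 51.8 and 38.7 CPM versus 88.7 and 69.9 CPM. Of the 15, 6 had both libraries labelled Rif1_KO above and 1 had both below, beside 21.0% and 18.4% of all tested genes. The 1 below was Meox1 (named after its values were seen), with 405 and 342 counts versus 6 and 140 counts. Smooth muscle and pericyte markers summed to 58.8 and 12.8 CPM versus 97.7 and 129 CPM, with Rgs5 at 11.3 and 0.752 CPM versus 52.5 and 64.1 CPM and Acta2 at 19.8 and 0 CPM versus 16.4 and 21.8 CPM. Of the 7 tested in that list, 3 had both libraries labelled Rif1_KO above (Rgs5, Des and Mylk), beside 21.0% of all tested genes. Another 2 had both below (Myh11 and Cspg4), beside 18.4%, with Myh11 at 196 and 50 counts versus 21 and 12 counts. All but Rgs5 were named after their values were seen. Supporting cell markers summed to 1071 and 1075 CPM versus 1328 and 1171 CPM, with both libraries labelled Rif1_KO above. Most of that list overlapped between the labels, 8 of the 10 tested genes beside 60.6% of all tested genes. Its median log2 fold change was 0.05, with 6 of the 10 above 0, beside 46.1% of all tested genes. The list was led by Kitl at 344 and 208 CPM versus 419 and 392 CPM. Lhx9, at 194 and 295 CPM versus 423 and 289 CPM, overlapped. The part of these markers in the differences of matrix genes was not tested.

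Endothelial markers summed to 352 and 166 CPM versus 90.6 and 199.8 CPM, with Emcn at 86.9 and 31.3 CPM versus 40.7 and 65.6 CPM and Pecam1 at 53 and 64 CPM versus 4.75 and 36.4 CPM. Mesonephric epithelial markers summed to 187 and 231 CPM versus 42.3 and 129 CPM, with Krt8 at 84.4 and 103 CPM versus 10.5 and 37 CPM and Krt18 at 31.7 and 47.6 CPM versus 15.7 and 51.5 CPM. The endothelial sums overlapped between the labels, while both mesonephric sums labelled Rif1_KO were below. On the deposited totals the endothelial sums still overlapped, at 299.4 and 131.7 versus 99.7 and 261.6 per 1000000 counts. The mesonephric sums there were 159.0 and 183.1 versus 46.6 and 169.5 per 1000000 counts and overlapped. Cartilage markers summed to 35.1 and 66.1 CPM versus 53.4 and 52 CPM, with Hapln1 at 3.32 and 43 CPM versus 8.51 and 26.5 CPM and Sox5 at 28.9 and 5.05 CPM versus 23.6 and 7.63 CPM. On the deposited totals they had 29.8 and 52.5 versus 58.7 and 68.1 per 1000000 counts, where both libraries labelled Rif1_KO were above. Of the 5 cartilage markers tested, DESeq2 called 1 higher, beside 2.13% of all tested genes, and edgeR called 0. Leukocyte markers summed to 3.41 and 20.9 CPM versus 7.08 and 8.21 CPM, Csf1r being at 0.645 and 16.9 CPM versus 1.13 and 2.81 CPM and Laptm5 at 0.645 and 1.72 CPM versus 0.753 and 4.61 CPM; Tyrobp had 0 counts in both WT libraries and 1 and 2 counts in the others. Erythroid markers were at 138750 and 113080 CPM versus 9895 and 4270 CPM, led by Hba-a1 and Hba-x. In that list edgeR called 2 of 13 genes lower, beside 0.0129% of all tested genes called in either direction. These were the near-identical Hba-a1 and Hba-a2, whose reads cannot be told apart with certainty. DESeq2 called 9 of the 13 lower, beside 1.23% of all tested genes. For 12 of the 13 both libraries labelled Rif1_KO lay below both labelled WT, beside 18.4%. The germ cell list was led by Dppa5a at 3.32 and 241 CPM versus 34.4 and 2.28 CPM and Dazl at 13 and 196 CPM versus 2.03 and 4.08 CPM. Of the 9 germ cell markers tested, DESeq2 called 3 lower, beside 1.23% of all tested genes, and edgeR called 0.

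**Figure D5:**
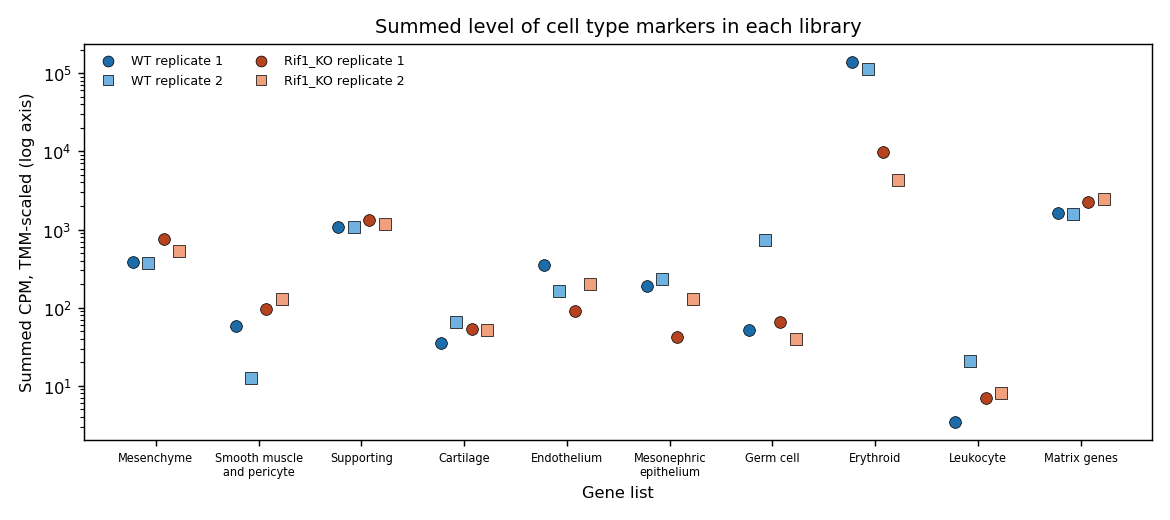
Summed CPM (TMM-scaled, log axis) of the marker lists and of the 43 matrix genes in each library; circles are replicate 1 and squares replicate 2, blue for WT and orange for Rif1_KO. Mesenchyme markers lie at 385 and 374 CPM under WT and 751 and 532 CPM under Rif1_KO, the germ cell list is high only in WT replicate 2, and erythroid markers are lower in both libraries labelled Rif1_KO.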

How the data were processed

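The deposited values were whole-number counts of fragments per gene, 1 column per library, not normalized. The submitters' processing notes list mm10, Trim Galore, FastQC, HISAT2 and SAMtools beside featureCounts. Per the file headers, featureCounts 1.6.2 counted on GENCODE M17, at a mapping quality of 30 or more, with reads over several genes given to each and no strand option, so overlapping and antisense genes are uncertain. Multi-mapping reads that reach this quality were included.

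Of 53715 genes, 15466 passed edgeR's filterByExpr (minimum count 10). They were tested with edgeR 4.0.16 (R 4.3.3) by the robust quasi-likelihood method with TMM scaling, and p-values were adjusted over them by Benjamini-Hochberg at 0.05. An SE was taken as the absolute log2 fold change over the square root of F. DESeq2 1.42.0 served as an alternative. Replicates differed by more than sampling noise (chi-square per degree of freedom 107 and 86.6). On simulated counts for Rif1_KO against WT over 15466 genes, the fit recovered 0% of 50 genes changed 4-fold, 6% at 16-fold, 48% at 64-fold and 90% at 256-fold. The members and lists were chosen with earlier results of these data known. Every member was reported. Of each other pathway list the 3 genes with the smallest p were named, and of each marker list the 2 with the highest level and any at 0 in a whole group. One of the marker lists is not reported here.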

Additional observations from a re-analysis of the deposited data

How the results depend on the processing

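The edgeR fit over all genes called 2 genes, both lower; 0 were called with upper-quartile factors, with haemoglobin, ribosomal RNA-region and mitochondrial genes left out, or with a minimum count of 50. The count was 54 with no filter, 519 with DESeq2, and 5 to 1345 with 1 library left out (1345 without WT replicate 1, 890 without WT replicate 2). With a replicate block it was 7; the numbers did not pair the libraries (correlation of deviations -0.02). With 1 library left out, matrix genes with no overlap between the labels and Rif1_KO higher numbered 20 to 28. The share of all tested genes was 34.1% to 38.2% there.

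Median log2 fold changes of the classes moved as follows. Upper-quartile factors gave 1.5 for fibrillar collagens, 0.66 for other collagens, 1.11 for proteoglycans and 1.44 for adhesive genes. No filter gave 1.49 for fibrillar collagens, 1.79 for proteoglycans and 1.45 for adhesive genes, and the stricter filter 1.44, 1.48 and 0.84. The replicate block gave 1.5 for fibrillar collagens, 0.86 for other collagens and 1.35 for proteoglycans. Deposited totals without scaling, chosen after seeing the data, gave 1.76, 0.85, 0.44, 1.4, 1.29 and 1.74 for fibrillar, other collagen, basement membrane, proteoglycan, elastic and adhesive genes. They moved the median of all genes from -0.11 to 0.43. Leaving out 1 library gave 1.09 to 1.43, -0.15 to 0.64, -0.26 to 0.8, 1.26 to 4.96, 0.63 to 1.5 and 0.43 to 2.76 in the same order; the 4.96, without WT replicate 1, was 2.41 with genes at 0 counts in the remaining WT library set at their bound. The causes of these moves were not tested. Of 42 matrix genes, 21 kept the sign of their fold change in every alternative that gave a fitted value (10 to 12 of 12), 18 above 0 and 3 below (Col2a1, Col12a1 and Bgn). With all 4 libraries, members were called with no filter (3: Col1a1, Dcn and Lum), beside 54 of all 45215 genes fitted. DESeq2 called Lum, beside 519 of all 15466 genes. No single value is given for Lum, Fmod, Ogn and Lox without WT replicate 1, because the remaining WT library had 0 counts.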
